A study of Mus musculus with 16 samples.

Results

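Macrophages high in *Wfdc17*, *Maf*, *Marco* and *Slc16a9* were examined in bone marrow stromal cell (BMSC) cultures, which in these preparations consisted mostly of myeloid cells. A cell was called myeloid when it had at least 500 genes, under 20% mitochondrial UMIs (unique molecular identifiers, each counting 1 captured RNA molecule), at least 80 UMIs of *Lyz2*, *Tyrobp*, *Fcer1g*, *C1qa*, *C1qb* and *C1qc* per 10000 and under 25 of *Col1a1*, *Col1a2*, *Sparc*, *Tagln* and *Tpm2*. In each sample, the 10% of myeloid cells with the highest sum of *Marco*, *Maf*, *Slc16a9* and *Wfdc17* UMIs per 10000 were taken as members, and the remaining 90% of the same sample served as the other myeloid cells. This gave 1383 members of 13823 myeloid cells, out of 15847 cells passing the filters and 17793 barcodes in 15 samples.

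The cultures came from 12-week-old male C57BL/6J littermates of 4 genotypes: WT, Fgf23cKO (*Fgf23* recombined by a Cre under the *Dmp1* promoter), Dmp1KO (a global deletion of *Dmp1*) and Dmp1KO/Fgf23cKO, which carries both. By the study's methods the littermates of all 4 genotypes, WT included, had both *Fgf23* alleles floxed, and the WT and Dmp1KO mice lacked the Cre. All cells grew for 21 days in osteogenic medium with 10% serum and 10 mM β-glycerophosphate, were sorted for viability, tagged per culture and pooled by genotype into 1 droplet reaction each, so that an effect of the genotype and one of its reaction cannot be told apart. The tests used 11 tagged cultures (3 WT, 3 Fgf23cKO, 2 Dmp1KO and 3 Dmp1KO/Fgf23cKO) with 1210 members and 10889 other myeloid cells. The fourth sample of each genotype was read as the cells without an assigned tag and enters no main test, and the counts of Dmp1KO culture 1 were not analysed here. The question put to these data was which genes set the members apart from their neighbours, and whether that set differed between genotypes.

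Macrophages take up dying cells, modified lipoproteins, iron and matrix debris, and bone marrow macrophages are known to accompany osteoblasts. Resident-type macrophages typically carry scavenger and lectin receptors, whereas freshly arrived or lipid-loaded macrophages carry adhesion, protease and lipid storage genes. MARCO is a class A scavenger receptor with a collagenous domain, MAF a bZIP transcription factor of differentiated macrophages, SLC16A9 a transporter of the monocarboxylate family, and WFDC17 a small secreted protein with a WAP (whey acidic protein) domain.

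The tagged cultures held 9.52e+06 to 7.25e+07 UMIs in genes, with a median of 2.01e+07, of which the members contributed 6.49e+05 to 4.90e+06. The number of members was 90, 178 and 149 in the WT cultures, 36, 33 and 45 in the Fgf23cKO cultures, 258 and 242 in the Dmp1KO cultures and 76, 63 and 40 in the Dmp1KO/Fgf23cKO cultures. Median UMIs per member ran from 6694.5 to 7785 in WT and from 15517 to 40535 elsewhere, so WT members were the shallowest cells. No difference in median UMIs between members and other myeloid cells was detected (mean log2 difference -0.03 ± 0.23 SD over 11 cultures, exact sign-flip permutation test, two-sided p = 0.650), although both Dmp1KO cultures had shallower members, at 17892.5 against 23887.5 and 15517 against 21948 UMIs. No barcode was shared within a genotype, and 44 were shared over 96 pairs of samples of different genotypes, at most 0.72% of the smaller sample.

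The deleted genes were read first. *Dmp1* gave 3530 UMIs over all cells of the WT samples, 4665 in Fgf23cKO, 5 in Dmp1KO and 175 in Dmp1KO/Fgf23cKO, and members held 5, 14, 0 and 0 of these. *Fgf23*, the phosphate-regulating hormone made by osteocytes, gave 9, 10, 2 and 1 UMIs and none in members, which is too few to check that deletion.

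*The score and its 4 genes.* The values of the 4 genes chose the members and are given below as a description without a test. *Wfdc17* supplied 51.6% to 71.4% of the members' score, *Maf* 19.4% to 46.1%, *Marco* 2.07% to 16.6% and *Slc16a9* 0.210% to 1.49%. In the Dmp1KO cultures *Maf* supplied 42.6% to 46.1% and *Marco* 2.07% to 3.51%. In the other genotypes these shares were 19.4% to 30.9% and 5.10% to 16.6%. *Wfdc17*, the largest contributor in every culture, is not in the label of *Marco* and *Maf* high macrophages, so the cells are called members here, after the rule that chose them. They carried the 14 macrophage core genes, whose summed level was 9177 to 9296 CPM (UMI counts scaled to the same total in every pool of cells) in WT members and 8966 to 9042 in Dmp1KO members. The corresponding range in other myeloid cells was 8492 to 8628 in WT and 9686 to 9745 in Dmp1KO. Of these genes, 6 were higher in members, among them *Csf1r*, the receptor of the macrophage growth factor, and 2 were lower, *Cd14* and *Spi1*. Without the Dmp1KO cultures 9 of the 14 were higher and 1 lower, and within Dmp1KO 6 and 6.

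*Wfdc17* reached 7289, 8619.7 and 9616 CPM in WT members, 4052, 4886 and 3088 in Fgf23cKO members, 1449 and 1746 in Dmp1KO members, and 3907, 3903 and 3977 in Dmp1KO/Fgf23cKO members. Other myeloid cells of the same cultures had 1520.4 to 1939.7, 532 to 838, 309 to 344 and 833 to 875 CPM. *Maf* was at 3179.8, 2859 and 2817 CPM in WT members, 1198, 1417 and 1524 in Fgf23cKO, 852 and 1225 in Dmp1KO and 1297, 1197 and 1136 in Dmp1KO/Fgf23cKO. In the other myeloid cells it was lower in every culture, at 1902 to 2069 CPM in WT, 701 to 961 in Fgf23cKO, 889.7 to 957 in Dmp1KO/Fgf23cKO, and 167 and 241 in Dmp1KO.

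*Marco* was at 842, 1098 and 1173 CPM in WT members, 971, 1385 and 617 in Fgf23cKO, 83.5 and 72.6 in Dmp1KO, and 385, 274 and 729 in Dmp1KO/Fgf23cKO. The other myeloid cells held 309 to 437, 112 to 312, 6.72 to 8.49 and 65.4 to 75.5 CPM of it. *Slc16a9* was at 116, 175 and 111 CPM in WT members, 48.6, 117 and 68.7 in Fgf23cKO, 4.08 and 8.98 in Dmp1KO and 56.8, 59.8 and 57.3 in Dmp1KO/Fgf23cKO. Stromal cells of the same cultures, which should lack these transcripts apart from *Maf*, carried 28.0 to 124 CPM of *Wfdc17*, 109 to 365 of *Maf*, 0 to 29.9 of *Marco* and 0.863 to 8.99 of *Slc16a9*. In the Dmp1KO cultures the other myeloid cells (0.451 and 0.847 CPM of *Slc16a9*) lay below the stromal cells (2.29 and 1.20).

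**Figure D1:**
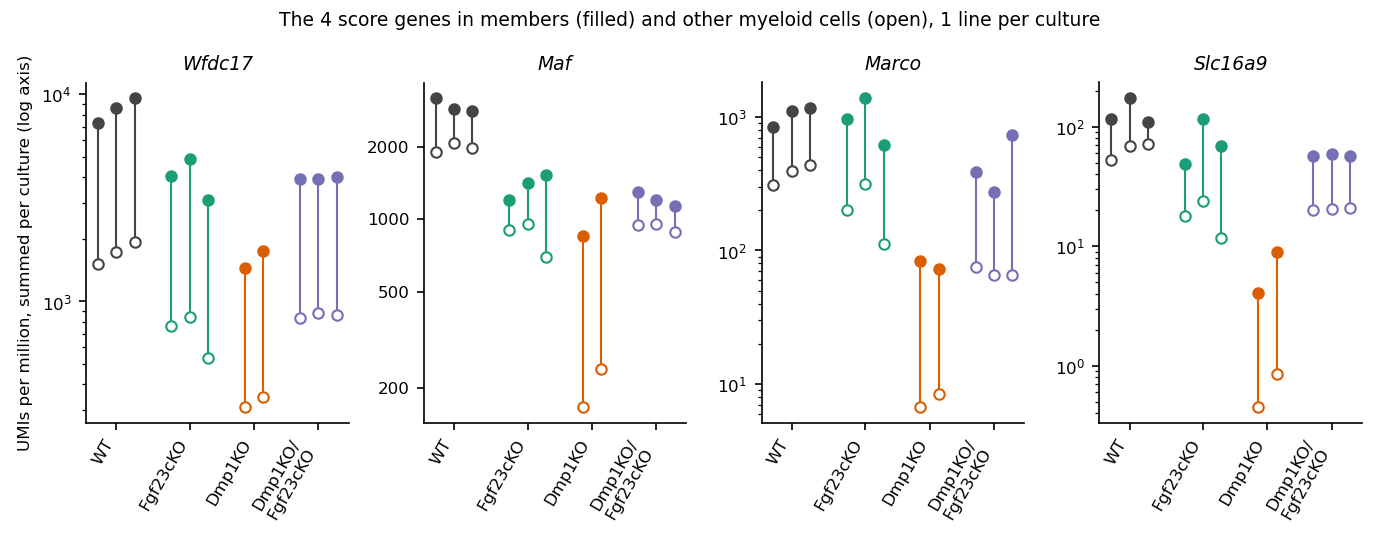
CPM of *Wfdc17*, *Maf*, *Marco* and *Slc16a9* (log axes, a scale of its own per gene) in each of the 11 tagged cultures, with members as filled and other myeloid cells as open circles joined by a line. Both Dmp1KO cultures lie lowest for *Wfdc17*, *Marco* and *Slc16a9* in members and in other myeloid cells.

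The score at which a cell became a member moved with these levels, since the share was fixed per sample. The lowest member had 88.1, 95.2 and 103 UMIs per 10000 in the WT cultures, 45.4, 49.1 and 35.9 in Fgf23cKO, 15.8 and 20.1 in Dmp1KO and 40.5, 41.2 and 41.4 in Dmp1KO/Fgf23cKO, and the highest cell left out was within 1 unit of it in every tagged culture. In WT culture 1, for example, the lowest member scored 88.087 and the next cell 87.6832. At that fixed level of 88.087, 10.0%, 12.6% and 14.9% of the WT myeloid cells would be members, against 0.221% to 2.41% in Fgf23cKO, 0% and 0.0413% in Dmp1KO and 0.478% to 0.752% in Dmp1KO/Fgf23cKO. Members of different genotypes are thus the upper end of their own culture, not cells at 1 common level.

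The 4 genes are on mouse chromosomes 1 (*Marco*, ENSMUSG00000026390, chr1:120474538-120505024, minus strand), 8 (*Maf*, ENSMUSG00000055435, chr8:115682942-115707794, minus strand), 10 (*Slc16a9*, ENSMUSG00000037762, chr10:70245100-70285968, plus strand) and 11 (*Wfdc17*, ENSMUSG00000069792, chr11:83703991-83706268, plus strand) in GRCm38 with GENCODE M21.

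To see whether the 4 genes marked the same cells, members were chosen again from 3 of them and the fourth was compared between the chosen and the remaining cells, again as a description, since all 4 genes belong to the rule. *Slc16a9* had a higher level in the chosen cells in 11 of 11 cultures (mean log2 difference 1.42 ± 0.51 SD) and so had *Marco* (1.09 ± 0.82). For *Wfdc17* (0.50 ± 0.37) and *Maf* (0.38 ± 0.44) the level was higher in 10 of 11 cultures. The ratio of chosen to remaining cells was 5.45 and 6.19 for *Marco* and 2.06 and 2.47 for *Maf* in the Dmp1KO cultures, but 1.12 to 1.33 and 1.13 to 1.17 in the WT cultures.

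Across single cells the 4 genes were only loosely tied. The median over cultures of the within-culture Spearman correlation ran from 0.0977 for *Marco* and *Slc16a9* to 0.262 for *Slc16a9* and *Wfdc17*. Choosing the top 10% by *Wfdc17* alone returned 59.7% to 81.6% of the members of a culture, by *Maf* alone 11.8% to 58.5%, and by *Marco* alone 20.6% to 36.4%.

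*Genes that followed the score.* Among 10550 genes seen in at least 5% of myeloid cells, the 5 with the highest mean within-culture Spearman correlation with the score over 11 cultures were *Selenop*, *Gas6*, *Mrc1*, *Stab1* and *Slc9a9*. Their mean correlations were 0.584, 0.562, 0.522, 0.5095 and 0.4999, each positive in 11 of 11 cultures, as a description over 12099 cells that share libraries and depth. These genes were picked by the score that also split the cells, so their differences between members and others are given without a p-value. They stay in the list counts below, and their levels in members were tested between genotypes.

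*Selenop*, which encodes the plasma selenium carrier, was at 1786, 2004 and 1747 CPM in WT members, 1418, 1777 and 1481 in Fgf23cKO, 1019 and 1350.0 in Dmp1KO and 1703, 1538 and 1437 in Dmp1KO/Fgf23cKO. Other myeloid cells held 1109 to 1196, 557 to 788, 305 to 411 and 909 to 1056 CPM. The difference was positive in all 11 cultures, with a fitted log2 fold change of 1.07 ± 0.096 (SE). For *Mrc1*, the mannose receptor CD206, the genotypes lay close together in members (1671, 1741 and 1494 CPM in WT, 1725, 1941 and 1974 in Fgf23cKO, 1225 and 1837 in Dmp1KO, and 1762, 1701 and 1499.8 in Dmp1KO/Fgf23cKO), and far apart in the other cells (1333 to 1416, 794 to 1261, 182 to 307 and 1330.2 to 1434 CPM). Its fitted log2 fold change of 0.90 ± 0.21 averages over small differences in WT and large ones in Dmp1KO.

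*Gas6*, which bridges phosphatidylserine on dying cells to receptor tyrosine kinases, was 1.08 ± 0.10 higher on the log2 scale, the scavenger receptor gene *Stab1* 0.94 ± 0.15 and the endosomal proton exchanger gene *Slc9a9* 0.76 ± 0.18, each in 11 of 11 cultures.

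*Members against other myeloid cells.* All tests across genes left out the 15 genes of the rule, compared summed counts with the culture as a block, and called a gene at an adjusted p under 0.1. The members were chosen by a score in the same cells, so genes that vary with the score genes from cell to cell had to differ, and the tests say which differences recurred over cultures. Of 11044 genes tested, 2123 were higher in members (19.2%) and 2111 were lower (19.1%), of which 333 and 913 had the same direction in every culture. Differences over 2-fold were more often downward, with 330 lower and 78 higher genes. Members formed smaller pools than the other cells. Without the filter on low counts, 1347 genes were higher and 2958 lower of 23183. How far pool size and the filter set this balance was not tested. Inside single genotypes the shares of 12457 genes higher and lower were 4.58% and 3.34% in WT, 10.4% and 10.3% in Fgf23cKO, 21.1% and 24% in Dmp1KO, and 4.46% and 5.77% in Dmp1KO/Fgf23cKO, with unequal numbers of members and UMIs behind them. With every cell thinned to 2000 UMIs, shallower cells left out and members chosen anew from the thinned counts, 492 genes were higher and 425 lower. That choice returned 56.6% to 81.0% of the members of a culture that had 2000 UMIs or more, and all counts with thinned cells below rest on it.

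The 15 largest upward differences shared by all cultures were those of *Padi4*, *Ednrb*, *Lama3*, *Wfdc18*, *Chp2*, *Hpse*, *Cbr2*, *Tns1*, *Cd4*, *Slc22a23*, *Cnrip1*, *Asb10*, *Gm1673*, *Fcna* and *Mmp27*, with log2 fold changes from 2.60 down to 1.41. *Padi4*, a peptidylarginine deiminase that makes citrulline in proteins, had the highest fold (2.60 ± 0.22, adjusted p = 6.18e-07) at low levels: 13.9, 13.8 and 8.03 CPM in WT members, 6.56, 4.69 and 2.25 in Fgf23cKO, 1.43 and 2.24 in Dmp1KO and 11.5, 5.94 and 3.26 in Dmp1KO/Fgf23cKO. In the other myeloid cells it lay between 0.0934 and 3.38 CPM, and its members' and others' ranges overlapped between genotypes but not within a genotype. *Ednrb*, the type B endothelin receptor, was at 80.1, 84.0 and 61.9 CPM in WT members, 33.5, 94.6 and 45.6 in Fgf23cKO, 34.3 and 66.1 in Dmp1KO and 103, 96.6 and 126 in Dmp1KO/Fgf23cKO. The other cells held 33.0 to 40.3, 8.81 to 13.5, 1.23 to 2.93 and 30.7 to 39.9 CPM, and the fitted log2 fold change was 2.23 ± 0.31 (adjusted p = 6.27e-05).

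The laminin chain gene *Lama3* was 1.87 ± 0.18 higher on the log2 scale (adjusted p = 1.48e-06), the heparan sulfate degrading enzyme gene *Hpse* 1.75 ± 0.16 (adjusted p = 1.3e-06) and the metalloproteinase gene *Mmp27* 1.41 ± 0.11 (adjusted p = 3.05e-07). *Wfdc18*, another WAP domain gene on the list of 19, was higher by 1.87 ± 0.16 (adjusted p = 6.61e-07) although it was no part of the score, with 3.27 to 19.3 CPM in members and 0.865 to 4.97 in other cells. Of the WAP list, 2 genes could be tested and the other, *Slpi*, did not pass (-0.04 ± 0.30, adjusted p = 0.948). *Cd4*, better known from T cells, was higher by 1.61 ± 0.19 (adjusted p = 1.36e-05), at 1.22 to 12.5 CPM in members, while the T and NK cell list had 8 of 9 genes at 0 UMIs in all members and summed to at most 0.803 CPM in any tagged culture.

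The 10 largest downward differences shared by all cultures were those of *Mmp12*, *Cav1*, *Cd200*, *Npy*, *Il7r*, *Nes*, *Stra6l*, *Cd109*, *Pcdh7* and *Trib3*, from -3.59 to -2.62 on the log2 scale. *Mmp12*, macrophage elastase, was at 15.4, 90.5 and 51.4 CPM in WT members, 13.8, 17.99 and 76.5 in Fgf23cKO, 579 and 162 in Dmp1KO and 21.0, 44.7 and 16.3 in Dmp1KO/Fgf23cKO. In the other myeloid cells it reached 705, 467 and 647, then 627, 435 and 758, then 2397 and 1957, and 476, 432 and 389.9 CPM in the same order, and the ranges of members and others did not overlap within any genotype (log2 fold change -3.59 ± 0.26, adjusted p = 1.24e-07). The neuropeptide gene *Npy* (-3.00 ± 0.20, adjusted p = 9.06e-08), the interleukin 7 receptor gene *Il7r* (-2.95 ± 0.17, adjusted p = 1.56e-08) and the caveolin gene *Cav1* (-3.44 ± 0.25, adjusted p = 1.55e-07) were likewise lower in 11 of 11 cultures. *Cd200*, which encodes a ligand that restrains myeloid cells, had no UMI in members of the 3 WT cultures and 6.53 and 3.99 CPM in Dmp1KO members against 57.5 and 46.1 in the other cells.

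**Figure D2:**
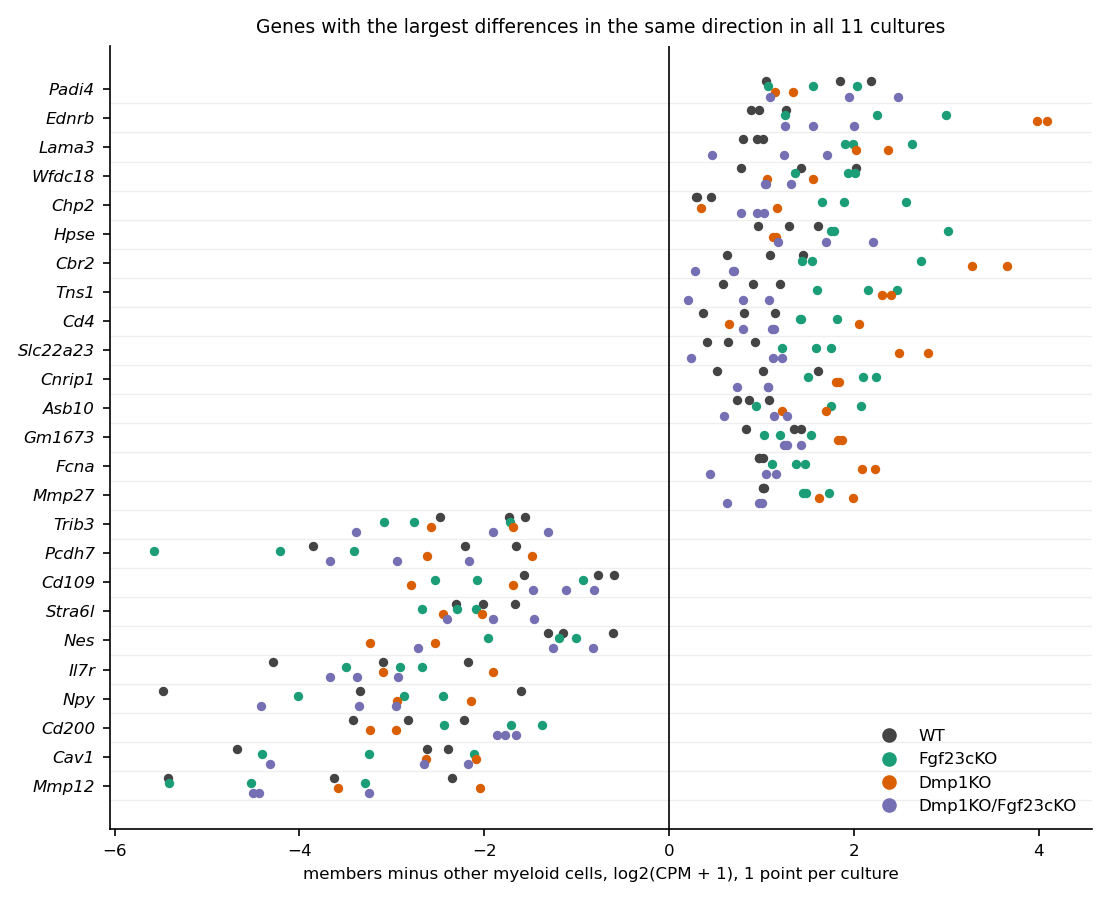
Difference between members and other myeloid cells in log2(CPM + 1) for the 15 genes most raised and the 10 most lowered in the same direction in all 11 tagged cultures, 1 point per culture, coloured by genotype. For *Ednrb*, *Cbr2* and *Slc22a23* both Dmp1KO points lie to the right of all others.

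*Gene groups.* Lists were described by how many of their tested genes passed in each direction, to be read against the 19.2% and 19.1% of all genes and a median log2 fold change of -0.00016 over all genes. Counts under an alternative are to be read against all genes under it. Those were 492 higher and 425 lower of 6538 with every cell thinned to 2000 UMIs. Without the Dmp1KO cultures they were 1680 and 1626 of 10855, and without cycling cells 1668 and 1582 of 10581. With RLE size factors they were 2110 and 2117 of 11044. Shares inside single genotypes are given above. Of 17 tissue-resident macrophage genes tested (22 listed), 16 were higher in members and none lower, with a median log2 fold change of 0.94. They included *Selenop*, *Gas6*, *Mrc1* and *Stab1*, which were picked above by the score and so had to differ. Others were *Fcna*, the lectin ficolin A (1.47 ± 0.15, adjusted p = 3.9e-06), *Ltc4s*, which makes leukotriene C4 (1.38 ± 0.16, adjusted p = 1.11e-05), and the carbonyl reductase gene *Cbr2* (1.72 ± 0.28, adjusted p = 0.000247). The list's most abundant gene was the growth factor gene *Igf1*, at 1512 to 2316 CPM in members and 1284 to 1802 in others (0.40 ± 0.050, adjusted p = 1.74e-05). Without the Dmp1KO cultures, 15 of 17 were higher and 1 lower.

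Of 13 heme and iron handling genes tested, 10 were higher and none lower. With every cell thinned to 2000 UMIs 5 of 11 were higher, and within Dmp1KO 9 of 14 were higher and 3 lower. *Tfrc*, the transferrin receptor, was at 285, 218 and 284 CPM in WT members against 127, 149 and 148 in other cells, and at 45.1 and 65.6 against 15.02 and 17.9 in Dmp1KO (1.11 ± 0.094, adjusted p = 5.74e-07). *Slc40a1*, the iron exporter ferroportin, followed at 0.80 ± 0.092 (adjusted p = 9.3e-06), whereas the ferritin heavy chain gene *Fth1*, the most abundant of the list, did not pass (-0.01 ± 0.080, adjusted p = 0.929).

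Lysosome and vacuolar ATPase genes were higher in 18 of 27 cases and lower in 2 with all cultures, but within Dmp1KO 7 were higher and 10 lower. Their summed level in members was 0.950 to 0.954 times that in the other cells in the Dmp1KO cultures, 1.21 to 1.23 times in WT, 1.17 to 1.30 times in Fgf23cKO and 1.18 to 1.25 times in Dmp1KO/Fgf23cKO. Thinning to 2000 UMIs left 11 higher and 2 lower. *Lamp1*, a lysosomal membrane protein gene, was higher by 0.49 ± 0.044 (adjusted p = 1.16e-06) and the cathepsin gene *Ctsb* by 0.44 ± 0.054 (adjusted p = 1.78e-05), both in 11 of 11 cultures. *Ctsd*, another cathepsin gene, was higher overall (0.42 ± 0.081, adjusted p = 0.000982) but lower in both Dmp1KO cultures (6318 against 6544 and 5849.9 against 6378 CPM), and its direction turned when the score omitted *Wfdc17*.

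Interferon-stimulated genes were higher in 14 of 24 cases and lower in none, with *Bst2*, the antiviral protein tetherin, at 252 to 895 CPM in members and 174 to 539 in others (0.71 ± 0.053, adjusted p = 1.83e-07). Within WT 1 of 24 passed, without the Dmp1KO cultures 7 of 24 did, and with every cell thinned to 2000 UMIs 2 of 12. Of 8 alternative activation genes, 6 were higher and 1 lower, whereas with thinned cells 1 of 6 was higher and none lower, and within WT 2 of 8 were higher. *Clec10a*, a galactose-type lectin gene, was higher in 10 of 11 cultures (1.23 ± 0.23, adjusted p = 0.000806).

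Efferocytosis genes (8 higher and 2 lower of 15), scavenger receptors (5 and 1 of 12), cholesterol efflux and LXR targets (5 and 1 of 11), complement genes (4 and 2 of 11) and NRF2 targets (8 and 3 of 16) had more genes higher than lower, although with every cell thinned to 2000 UMIs the NRF2 count became 2 higher and 4 lower of 15 and the efferocytosis count 4 and 2 of 14, and without the Dmp1KO cultures the complement count became 2 and 1 of 11. Monocarboxylate transporters gave 3 higher and 1 lower of 9 with all cultures, 3 and 3 of 9 without the Dmp1KO cultures, and 0 and 1 of 11 within WT. *Abca1*, the cholesterol exporter, was higher by 0.52 ± 0.078 (adjusted p = 0.000105), the complement regulator gene *Cfp* (properdin) by 0.59 ± 0.098 (adjusted p = 0.000282) and the catalase gene *Cat* by 0.65 ± 0.075 (adjusted p = 9.16e-06), each in 11 of 11 cultures. Within the efferocytosis list *Mfge8*, another bridge to phosphatidylserine, was lower by 2.25 ± 0.20 on the log2 scale (adjusted p = 8.7e-07), opposite to *Gas6*.

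Lipid-associated macrophage genes were divided, with 4 higher and 7 lower of 16. Without the Dmp1KO cultures 6 were higher and 7 lower, within WT 8 and 5, and within Dmp1KO 1 and 13. *Apoe*, the apolipoprotein of cholesterol transport, was at 25008 to 26653 CPM in WT members and 16054 to 18057 in other cells, at 16699 and 18907 against 9294 and 10375 in Dmp1KO, and higher in 11 of 11 cultures (0.77 ± 0.054, adjusted p = 1.19e-07). The integrin gene *Itgax* (-2.21 ± 0.16, adjusted p = 1.85e-07) and the lipoprotein lipase gene *Lpl* (-1.62 ± 0.13, adjusted p = 2.98e-07) were lower in 11 of 11 cultures.

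MHC class II genes, which present antigen to CD4 T cells, were lower in 4 of 6 cases and higher in 1. Without the Dmp1KO cultures 2 of 4 tested were lower and none higher, and with every cell thinned to 2000 UMIs 2 genes could be tested and neither passed, with a median of 0.20 on the log2 scale. *Cd74*, the invariant chain, was at 4.62, 3.28 and 0.803 CPM in WT members against 58.8, 36.1 and 72.3 in other cells, and at 78.6 and 56.6 against 125 and 134 in Dmp1KO (-2.16 ± 0.29, adjusted p = 4.11e-05). *H2-DMa*, a peptide-loading gene, was the exception (0.22 ± 0.076, adjusted p = 0.0396) and was higher in 7 of 11 cultures.

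Cell cycle genes were lower in members: 20 of 20 S phase genes and 21 of 21 G2 and mitosis genes passed and none was higher. With every cell thinned to 2000 UMIs 4 of 7 and 9 of 10 were lower, and within Fgf23cKO 17 of 20 and 2 of 21. Over the G2 and mitosis genes the median log2 difference was below 0 in 10 cultures and 0.58 in Fgf23cKO culture 1. The replication helicase gene *Mcm6* was lower by 1.08 ± 0.12 on the log2 scale (adjusted p = 6.28e-06) and the proliferation marker *Mki67* by 1.28 ± 0.19 (adjusted p = 8.6e-05), the latter at 142 CPM in members against 141 in others in Fgf23cKO culture 1, and lower in the other 10 cultures. By a limit of 10 cell cycle UMIs per 10000, 0% to 16.7% of members (median 7.5%) and 10.6% to 20.6% of other cells (median 17.4%) were cycling. When those cells were removed from both sides, an alternative added after seeing the data, 3 of 14 S phase genes were lower and 5 of 10 G2 and mitosis genes lower with 2 higher, one of them *Mki67* at 0.30. Cells were removed by their cell cycle UMIs, so changed counts for these genes follow in part from the removal.

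Cytosolic ribosomal protein genes were lower in 36 of 74 cases and higher in 1, by a median of -0.12 on the log2 scale, and glycolysis and hypoxia genes were lower in 9 and higher in 3 of 20. *Rpl4* (-0.41 ± 0.054, adjusted p = 3.57e-05) and the phosphofructokinase gene *Pfkp* (-0.88 ± 0.10, adjusted p = 9.33e-06) led them. With RLE size factors 29 ribosomal protein genes were lower, without the Dmp1KO cultures 20 of 73 were lower, without cycling cells 21 of 73, and with every cell thinned to 2000 UMIs 11 of 73. Within WT 7 of 74 were higher and 1 lower. Thinning left 4 glycolysis and hypoxia genes lower and 1 higher of 17. Oxidative phosphorylation genes (9 higher and 10 lower of 78), cholesterol synthesis genes (2 and 2 of 18), growth factors (5 and 5 of 11), transcription factors (8 and 6 of 27), chemokines (5 and 4 of 16) and immediate early and dissociation stress genes (6 and 5 of 18) went both ways. The stress count without the Dmp1KO cultures was 2 higher and 5 lower, and the transcription factor count without cycling cells 4 and 8 of 27. Without the Dmp1KO cultures the oxidative phosphorylation count became 22 higher and 4 lower of 77 (within Dmp1KO 0 and 63 of 78) and the NF-kB target count, at 9 higher and 1 lower of 23 with them, became 7 higher and 6 lower. FGF receptor and Klotho genes gave 2 testable genes, of which *Fgfr1* was lower (-1.21 ± 0.30, adjusted p = 0.00619) and *Fgfr2* did not pass (-0.13 ± 0.094, adjusted p = 0.308). Without the Dmp1KO cultures neither passed, with *Fgfr1* at -0.64 (adjusted p = 0.162).

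**Figure D3:**
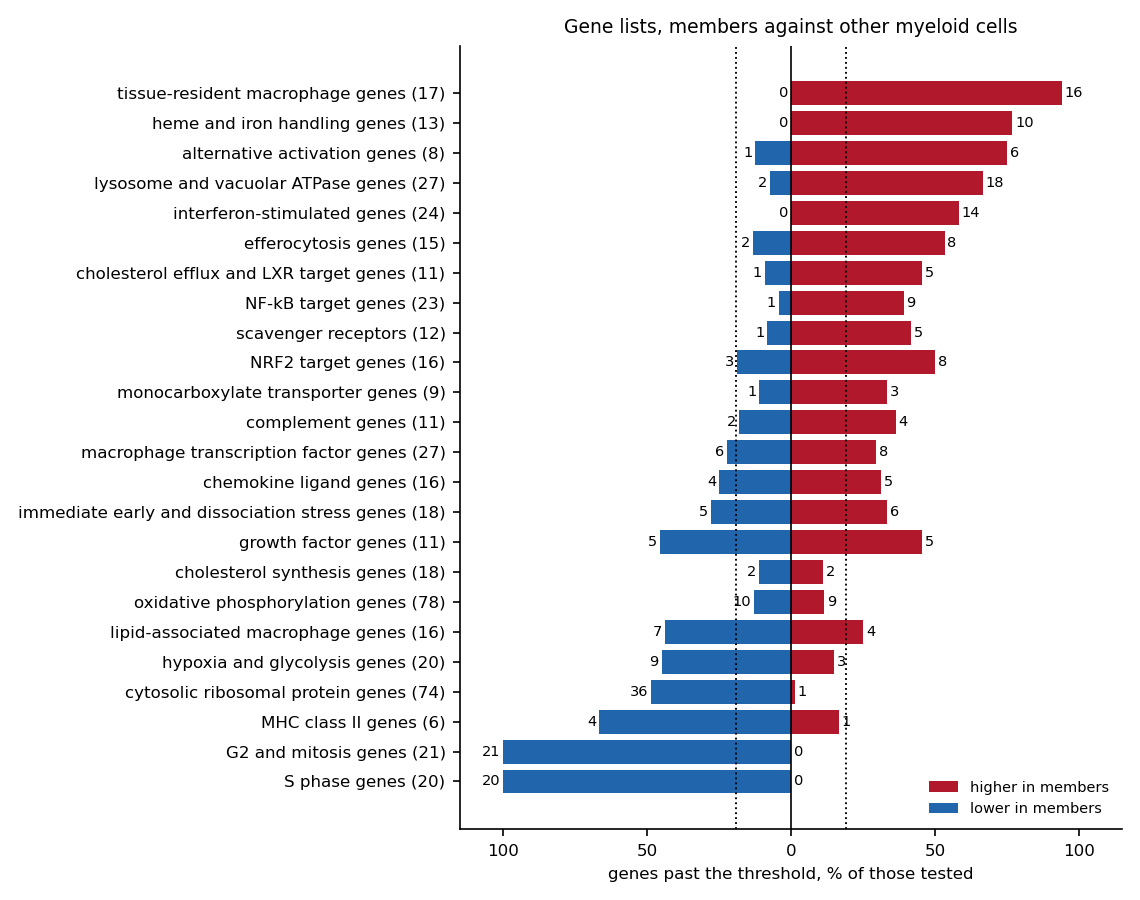
Share of tested genes of each list that were higher (right) or lower (left) in members at an adjusted p under 0.1, with the number of genes at each bar, the number tested in parentheses, and dotted lines at 19.2% and 19.1% for all genes. Tissue-resident genes stand at the top with 16 of 17 higher and cell cycle genes at the bottom.

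*Markers of other cell types.* Of 10 stromal and osteoblast genes tested, 1 was higher and 2 were lower, and the list of 13 summed to 58.4 to 164 CPM in members and 76.3 to 169 in other myeloid cells, with *Ibsp* the most abundant (40.5 against 38.8 CPM on average). Monocyte genes were lower in 4 and higher in 1 of 6, and their sum was 379, 296 and 319 CPM in WT members against 1002, 917 and 908 in others, 590.0, 245 and 346 against 1222, 909 and 1768 in Fgf23cKO, 979 and 670 against 1916 and 1962 in Dmp1KO, and 189.6, 128 and 102 against 612, 568 and 797 in Dmp1KO/Fgf23cKO. The calcium-binding protein gene *S100a6*, the most abundant of that list, was lower by 1.63 ± 0.14 on the log2 scale (adjusted p = 5.14e-07) and 2 of its 12 genes were at 0 in all members. Among osteoclast genes, *Ctsk* (-1.95 ± 0.24, adjusted p = 1.78e-05) and *Acp5* (-1.31 ± 0.24, adjusted p = 0.000658) were lower and *Nfatc1* did not pass. Neutrophil genes summed to 46.7 to 67.3 CPM in members and 45.7 to 62.0 in others, and dendritic cell genes to 0 to 12.2 and 2.98 to 18.4 CPM. Both endothelial genes tested, *Eng* and *Kdr*, were lower (median -0.86 on the log2 scale). No gene of the B cell, mast cell, erythroid, megakaryocyte or adipocyte lists was abundant enough to test between members and other cells over all cultures, nor of the T and NK cell list, whereas *Ighm* of the B cell list was tested between genotypes. The B cell list summed to 22.0 and 17.5 CPM in Dmp1KO members and 11.98 and 15.7 in the other cells there, and to at most 2.92 CPM in any other tagged culture. Whether other cell types had a part in the differences above was not tested beyond these values.

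*Other macrophage states.* The members were set against the top 10% by 3 other scores, none of which shares a gene with theirs. A median of 1.11% of members (range 0% to 4.49%) were also in the top 10% by *Itgax*, *Mmp12* and *Lpl*, against 11.03% of other cells, a mean difference of -9.63 ± 1.80 percentage points with members lower in 11 of 11 cultures (exact sign-flip permutation test, two-sided adjusted p = 0.00146 over 3 scores). For *S100a4* and *Napsa*, carried by monocyte-like cells, the shares were 2.07% (0% to 5.56%) and 10.9%, a difference of -8.54 ± 2.21 points in 11 of 11 cultures (adjusted p = 0.00146, same exact test). For the activation genes *Cd86* and *Cd83* no difference held over cultures (1.04 ± 10.5 points, higher in 4 of 11, adjusted p = 0.747, same exact test), with 29.8% and 24.0% of members in the 2 Dmp1KO cultures and 2.22% to 17.8% in the other 9. The first 2 scores name genes already seen above to be lower in members, so these shares restate that result cell by cell.

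**Figure D4:**
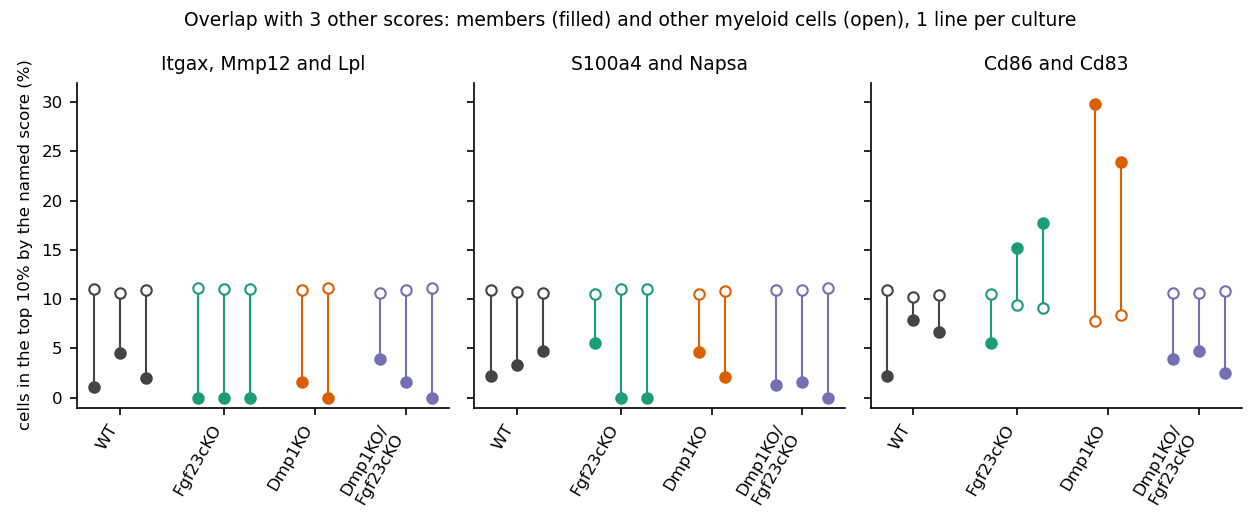
Percent of members (filled) and other myeloid cells (open) that fall in the top 10% of their culture by 3 other scores, 1 line per tagged culture. Members lie below the others in all 11 cultures for the *Itgax*, *Mmp12* and *Lpl* score and for the *S100a4* and *Napsa* score, and above them in both Dmp1KO cultures and in Fgf23cKO cultures 2 and 3 for *Cd86* and *Cd83*.

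*The member difference between genotypes.* To ask whether members stood apart from their neighbours in the same way in each genotype, the difference between members and others was compared with that in WT in 1 fit over 12457 genes. The rule did not make this contrast equal. The median score was 106, 117 and 124 in WT members against 38.2, 42.6 and 42.1 in the other cells. In the Dmp1KO cultures it was 20.8 and 26.7 against 3.94 and 4.96, a wider gap in proportion. The part of this gap in the counts below was not tested. In Dmp1KO the difference was more positive than in WT for 1519 genes (12.2%) and more negative for 1296 (10.4%), and without Dmp1KO culture 3 it changed for 1296 genes in all in place of 2815, and with every cell thinned to 2000 UMIs for 1020. Leaving out a Dmp1KO culture left a single one in that genotype, so the other genotypes gave the spread. In Fgf23cKO the difference changed for 4 genes (0.0321%), the cathepsin gene *Ctsk* and the genes *Ddx60*, *Abca1* and *Sars*. DESeq2 called 168 genes for it, and edgeR 234 without the filter on low counts and 265 with the top 20%. *Ddx60*, an antiviral helicase gene, was at 99.8, 85.3 and 90.6 CPM in Fgf23cKO members against 51.0, 48.4 and 30.7 in the other cells, and at 43.2, 53.8 and 67.5 against 60.5, 59.9 and 58.8 in WT. The count of 4 became 0 without any single WT culture, 252 without Fgf23cKO culture 1, 52 without culture 2, and 12 or 15 without a Dmp1KO culture. In Dmp1KO/Fgf23cKO edgeR called no gene (0%), with 602 genes at an unadjusted p under 0.05 and 5 called by DESeq2, and at most 2 when a culture was left out (2 without Fgf23cKO culture 1, and 1 each without Fgf23cKO culture 3 and Dmp1KO/Fgf23cKO cultures 1 and 2).

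Of 17 tissue-resident genes, 13 had a more positive difference in Dmp1KO than in WT and 1, *Folr2* (chosen after its value was seen), a more negative one. The interaction passed for *Cbr2* (2.25 ± 0.29 on the log2 scale, adjusted p = 3.74e-05) and *Fcna* (1.32 ± 0.28, adjusted p = 0.00279). It was 2.17 ± 0.15 for *Mrc1*, 1.49 ± 0.15 for *Stab1* and 0.94 ± 0.11 for *Gas6*. These 3 were among the genes picked above by the score, so their interactions are given without a p-value. The median log2 difference over the 17 genes was 1.77 and 2.19 in the 2 Dmp1KO cultures, 0.30 to 0.52 in WT, 0.47 to 1.11 in Fgf23cKO and 0.25 to 0.38 in Dmp1KO/Fgf23cKO. The Dmp1KO cultures thus did not overlap the others, and Fgf23cKO culture 3, at 1.11, came nearest to them.

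NF-kB targets had a more positive difference in 15 of 23 cases and a more negative one in none, chemokine ligands in 11 and 1 of 17, alternative activation genes in 5 and 0 of 8 and immediate early and dissociation stress genes in 10 and 2 of 20. With every cell thinned to 2000 UMIs these counts were 6 and 0 of 18, 6 and 1 of 13, 2 and 0 of 8 and 5 and 1 of 18, and that of the tissue-resident genes was 9 and 1 of 16. Over all genes the thinned counts were 516 more positive and 504 more negative of 8319. *Cd86* was at 352 and 396 CPM in Dmp1KO members against 90.3 and 132 in the other cells, whereas WT members had 117, 122 and 89.98 against 182, 137 and 130.4 (interaction 1.95 ± 0.26, adjusted p = 4.64e-05). The chemokine gene *Ccl3* had an interaction of 0.69 ± 0.21 (adjusted p = 0.0263) and *Ccl2* of 1.01 ± 0.15 (adjusted p = 0.000129). The stress list, known to respond to cell isolation, summed to 2989.9 and 2906 CPM in Dmp1KO members against 2346 and 2395 in the other cells, and its part in the NF-kB and chemokine counts was not tested.

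The opposite held for lipid-associated genes, of which 0 had a more positive and 11 of 16 a more negative difference, for lysosome genes (0 and 15 of 27), oxidative phosphorylation genes (0 and 62 of 78) and ribosomal protein genes (0 and 70 of 74). With RLE size factors the last 2 counts were 65 and 70, and with all cells thinned to 2000 UMIs 39 of 75 and 64 of 73. Among all genes, 1450 of 12457 had a more negative difference with RLE size factors and 504 of 8319 with thinned cells. In log2(CPM + 1) the Fgf23cKO and Dmp1KO cultures overlapped for the last 2 lists. The median over 74 ribosomal protein genes was -0.43 to -0.15 in Fgf23cKO, -0.35 to -0.24 in Dmp1KO and -0.11 to -0.064 in WT. Over 78 oxidative phosphorylation genes it was -0.24 to 0.026, -0.27 to -0.19 and -0.0071 to 0.081 in the same order. For the 27 lysosome genes the median fitted interaction was -0.41. In log2(CPM + 1), without the size factors of the fit, their median difference was 0.078 to 0.084 in Dmp1KO and 0.14 to 0.19 in WT. It was 0.17 to 0.24 in Fgf23cKO and 0.068 to 0.16 in Dmp1KO/Fgf23cKO. The part of the scaling in these counts was not tested beyond the RLE factors. *Ctsd* had an interaction of -0.80 ± 0.090 (adjusted p = 9.58e-06), *Fth1* of -0.73 ± 0.12 (adjusted p = 0.000417) and the abundant protease gene *Ctss* of -0.97 ± 0.10 (adjusted p = 6.52e-06). *Apoe*, by contrast, had an interaction of 0.00047 ± 0.081 (adjusted p = 1).

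The 10 genes with the largest interactions in Dmp1KO whose cultures did not overlap with WT were *Cdh19*, *Ccr2*, *Dqx1*, *Nebl*, *Ly6c1*, *Gm12979*, *Zg16*, *Nt5e*, *Ifi208* and *H2-Eb1*. Of all 12457 genes tested, 49.8% did not overlap between these cultures. In 9 of them WT members had 0 UMIs, and in *Zg16* Dmp1KO members had 0 UMIs, so the fitted sizes of all 10 rest on the prior count and are not quoted. *Ccr2*, the chemokine receptor of inflammatory monocytes, had no UMI in members of WT, Fgf23cKO or Dmp1KO/Fgf23cKO cultures and 4.49 and 2.74 CPM in Dmp1KO members, while the other myeloid cells held 14.4 to 17.6 CPM in WT and 1.14 and 2.12 in Dmp1KO.

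**Figure D5:**
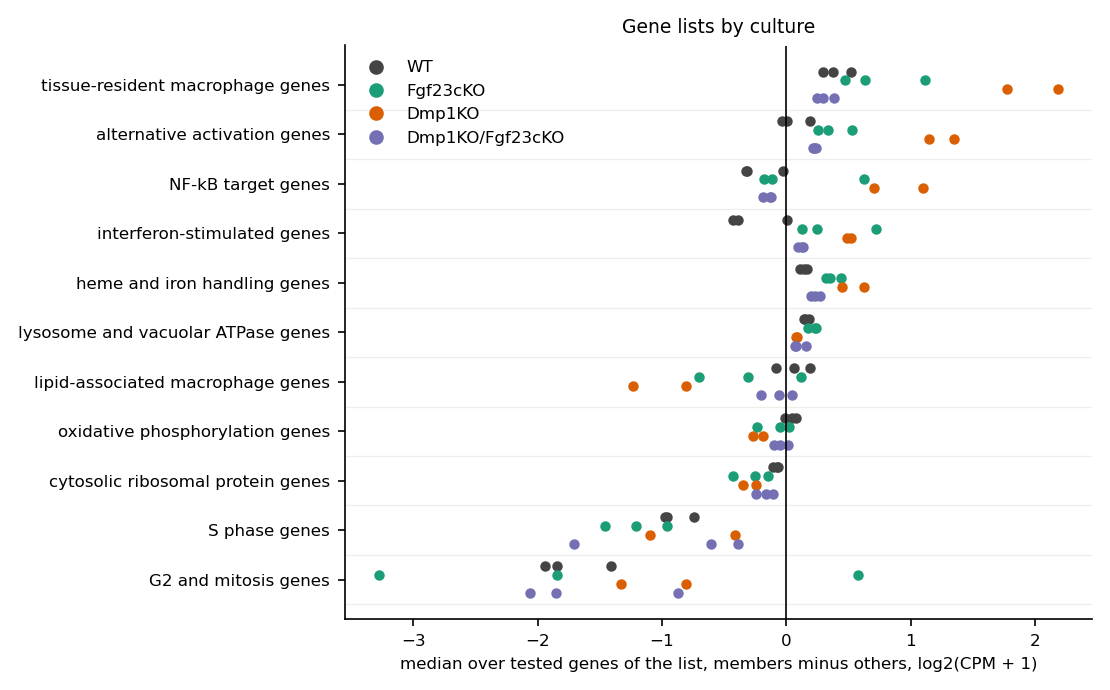
Median over the tested genes of 11 lists of the difference between members and others in log2(CPM + 1), 1 point per tagged culture, coloured by genotype. For tissue-resident and alternative activation genes both Dmp1KO cultures lie beyond all others, with Fgf23cKO culture 3 the next for tissue-resident genes at 1.11.

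The untagged cells, which entered no part of these fits, gave a further look at the same genes. These genes were chosen on the tagged Dmp1KO and WT cultures, so the values of those cultures follow from the choice. Tagged Fgf23cKO culture 3 was at 0.41 for the genes with a more positive difference and at -0.33 for those with a more negative one. Fgf23cKO cultures 1 and 2 were at 0.0044 and -0.0053, and at -0.097 and -0.15. The 1519 genes with a more positive difference had a median log2 difference between members and others of 0.76 and 0.82 in the 2 tagged Dmp1KO cultures and of 0.54 in the untagged Dmp1KO cells, against -0.07 in untagged WT, -0.05 in untagged Fgf23cKO and -0.16 in untagged Dmp1KO/Fgf23cKO cells. The 1296 genes with a more negative difference were at -0.32 and -0.40 in the tagged Dmp1KO cultures, and at -0.22 in untagged Dmp1KO, -0.11 in untagged WT, -0.09 in untagged Fgf23cKO and -0.02 in untagged Dmp1KO/Fgf23cKO cells. *Mrc1* was at 876 CPM in the 50 untagged Dmp1KO members and 212 in the other cells there, and at 1606 and 1217 in untagged WT cells. MHC class II genes went the other way from the tagged cultures in untagged Dmp1KO cells, where they summed to 628 CPM in members and 214 in the other cells, against 199.8 and 169 in members and 278 and 284 in other cells of the tagged Dmp1KO cultures. These cells came from the same 4 droplet reactions.

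*Genotypes within members.* Members of the 4 genotypes were also compared with each other over 9668 genes, each being the upper end of cultures with different score levels and depths. Against WT, 1354 genes were higher (14%) and 1564 lower (16.2%) in Dmp1KO, 807 higher (8.35%) and 1070 lower (11.1%) in Fgf23cKO, and 1293 higher (13.4%) and 1475 lower (15.3%) in Dmp1KO/Fgf23cKO. Dmp1KO/Fgf23cKO members had 577 genes higher (5.97%) and 627 lower (6.49%) than Dmp1KO members. The Fgf23cKO total of 1877 became 1249 without WT culture 2, and the last total of 1204 became 451 without Dmp1KO culture 2. Without a Dmp1KO culture that genotype held a single one, and the spread came from the other genotypes. The comparisons with WT share the WT cultures.

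By the rule on size, the genes named for Dmp1KO against WT were *Chst10*, *Gm20658*, *C77080*, *Chst11*, *Fgf13*, *Mfge8*, *Ighm*, *H2-Ab1*, *Slc15a2* and *Mamdc2*. *Mfge8* had 342 and 206 CPM in Dmp1KO members, 4.62, 5.25 and 5.62 in WT, 17.1, 9.39 and 12.9 in Fgf23cKO and 6.42, 7.13 and 6.51 in Dmp1KO/Fgf23cKO. It was 5.61 ± 0.28 higher on the log2 scale than in WT (adjusted p = 1.8e-10) and, in Dmp1KO/Fgf23cKO members, lower than in Dmp1KO by 5.38 ± 0.23 (adjusted p = 2.38e-11). The other myeloid cells of the Dmp1KO cultures had more of it still, at 1394 and 1228 CPM.

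*Cd74* was higher in Dmp1KO than in WT members by 4.57 ± 0.37 on the log2 scale (adjusted p = 5.28e-08), and *H2-Ab1* by 5.23 ± 0.77 (adjusted p = 5.82e-05), with 4 of 5 tested MHC class II genes higher and none lower. Markers of other antigen-presenting cells were higher there too. The B cell list summed to 17.5 to 22.0 CPM in Dmp1KO members and 0 to 1.31 in WT members, with *Ighm* higher by 5.57 on the log2 scale. For the dendritic cell list the sums were 7.98 to 12.2 and 0 to 3.94 CPM. Whether such cells had a part in the MHC class II values was not tested. *Itgax* and *Lpl*, low in members of every culture relative to their neighbours, were nonetheless higher in Dmp1KO than in WT members (4.27 ± 0.48, adjusted p = 2.89e-06, and 2.49 ± 0.30, adjusted p = 6.97e-06). Among tissue-resident genes 2 were higher and 6 lower of 17 in Dmp1KO, with *Selenop* lower by 0.72 ± 0.12 (adjusted p = 0.000251) and *Mrc1* not passing (-0.18 ± 0.12, adjusted p = 0.342).

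For Dmp1KO/Fgf23cKO against WT the largest differences included *Hal*, the histidine ammonia lyase gene, at 2.70, 1.19 and 1.30 CPM against 142, 132 and 119 in WT and 56.5 and 41.1 in Dmp1KO (-6.20 ± 0.28, adjusted p = 2.5e-11), along with *C77080*, *Adcy2*, *Gm36161*, *Gm36975*, *Slc15a2*, *1500015L24Rik*, *Cxcl10*, *1700087M22Rik* and *Gm43713*. For Fgf23cKO against WT they included *Ccdc162*, at 1.97, 2.35 and 2.25 CPM against 83.2, 35.4 and 32.9 (-4.49 ± 0.50, adjusted p = 4.37e-06), with *Ift81*, *Rapgef4*, *Ndrg1*, *Gm11290*, *Clba1* and *Serpinb2* among the others. *C77080* had 0 UMIs in WT members and 2.63 to 14.2 CPM in members of the other 3 genotypes.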

How the data were processed

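Single-cell 3′ libraries of 16 samples, 15 of them analysed here, were deposited as counts: UMI counts per gene and cell barcode that the authors made with Cell Ranger 7.0.1 on mm10 per the file headers and the submitters' processing notes, which also name Seurat. No doublet caller was run here, and the stromal limit removed mixed stromal and myeloid barcodes. CellPlex tag rows (12) stayed out of the totals.

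Members, gene lists and tests were chosen with earlier results of these data known. Summed counts of members and other myeloid cells per culture were tested with edgeR 4.0.16 (TMM, filterByExpr, quasi-likelihood F test) in R 4.3.3, with Benjamini-Hochberg adjustment over all genes tested, a threshold of 0.1 and the 15 rule genes left out. SEs are the log2 fold change over the square root of F. Single values were tested with an exact two-sided sign-flip permutation over 11 cultures (smallest p 0.000976562). Differences per culture are in log2(CPM + 1). The study took 3 individual cultures per genotype, and p-values measure the spread between these cultures. Scripts were tested on simulated data.

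Named genes were the 4 score genes, the 15 highest and 10 lowest log2 fold changes with 1 direction in every culture, up to 4 genes with the smallest p and the most abundant gene of each of 42 lists, up to 10 non-overlapping genes with the largest fold change per genotype comparison or interaction, and the 5 genes most like the score. Among all genes tested, 30.9% to 49.1% did not overlap in the comparisons within members and 13.5% to 49.8% in the interactions. Alternatives covered normalization (RLE), the filter, DESeq2 1.42.0, the threshold, the share taken (top 5% and 20%), the score, thinning to 2000 UMIs, matching on UMIs, cycling cells, untagged samples and each culture left out.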

Additional observations from a re-analysis of the deposited data

Results flagged for a closer look

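The difference between members and other myeloid cells changed between Dmp1KO and WT for 2815 genes by a test of the difference itself, the interaction term of edgeR, with 1519 more positive and 1296 more negative. The same interaction between Fgf23cKO and WT passed for 4 genes, *Ctsk*, *Ddx60*, *Abca1* and *Sars*. Leaving out 1 culture moved that count of 4 to between 0 and 252, and DESeq2 gave 168. The Dmp1KO count also fell without either of its cultures. With every cell thinned to 2000 UMIs the counts were 1020 for Dmp1KO and 21 for Fgf23cKO. Each genotype was 1 droplet reaction, and an effect of the genotype cannot be told apart from one of its reaction, and the Dmp1KO value rests on 2 cultures. In proportion, the score that chose the members also set them further from the other cells in Dmp1KO than in WT. The part of this gap in the counts was not tested.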

How the results depend on the processing

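Of 304 alternative values of the main results, 44 counts moved by over 1.5 times, and no difference over cultures changed sign except 2 that had not passed their test. The difference for the *Cd86* and *Cd83* score, at 1.04 percentage points, became -0.16 with thinned cells and -1.07 and -0.41 without Dmp1KO culture 2 or 3, and that in median UMIs, at -0.03, became 0.0067 and 0.015 without the same cultures. Without the filter on low counts 1347 genes were higher in members and 2958 lower of 23183. Thinning every cell to 2000 UMIs, with members chosen anew and shallower cells left out, left 492 higher and 425 lower genes, changed genes within members of 1056 (Dmp1KO against WT), 439 (Fgf23cKO), 761 (Dmp1KO/Fgf23cKO) and 364 (Dmp1KO/Fgf23cKO against Dmp1KO), and interactions of 1020, 21 and 1. Within single genotypes (added after seeing the data) the counts higher and lower were 571 and 416 in WT, 1290 and 1289 in Fgf23cKO and 555 and 719 in Dmp1KO/Fgf23cKO. Taking the top 20% gave 4865, 3313, 4340 and 3504 changed genes within members, and 265 for the Fgf23cKO interaction. DESeq2 gave 777 for Dmp1KO/Fgf23cKO against Dmp1KO, and 168 and 5 for the Fgf23cKO and Dmp1KO/Fgf23cKO interactions, which were 234 and 59 without the filter and 78 and 2 without cycling cells (added after seeing the data). The Fgf23cKO interaction gave 2 genes at an adjusted p under 0.05 and 0 with untagged samples included (added after seeing the data). The causes of these shifts were not tested.

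Leaving out 1 culture each gave log2 differences of 0.95 to 1.18 for *Marco*, 0.29 to 0.43 for *Maf*, 1.34 to 1.51 for *Slc16a9* and 0.45 to 0.56 for *Wfdc17* in cells chosen without them, 1757 to 2094 genes higher and 1760 to 2260 lower in members, and -9.98 to -9.47, -8.89 to -8.28 and -1.07 to 2.01 percentage points for the *Itgax*, *Mmp12* and *Lpl*, the *S100a4* and *Napsa* and the *Cd86* and *Cd83* scores. Median UMIs moved from -0.05 to 0.02. Changed genes within members ranged from 2054 to 3153, 1249 to 1891, 2033 to 2966 and 451 to 1490, and interactions from 1296 to 3311, 0 to 252 and 0 to 2. With the replicate number as a block the counts within members were 2768, 1767, 2659 and 1096, and the numbers did not pair the samples (15 pairs with the same number, r from -0.202 to 0.243).

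Of 156 named genes with alternatives, those that changed sign and passed the test with or without the alternative were, with the score without *Wfdc17*, *Ctsd* (-0.15), *Ndufc2* (-0.040), *Ndufv3* (-0.0043), *Rps29* (-0.13) and *Srebf2* (0.18), with scaled genes *Rps29* (-0.021), with thinned cells *Fdps* (0.10) and *Insig1* (-0.082), without cycling cells *Mki67* (0.30), and without the Dmp1KO cultures *Slc16a10* (-0.18). Calls were lost for 22 of the 111 that could be tested with thinned cells (of the 45 not tested there, 42 had passed at full depth), 12 without cycling cells, 11 with the top 5%, 10 with the score without *Wfdc17*, 9 without the Dmp1KO cultures, 7 with scaled genes and at most 5 under each other alternative, where at most 9 could not be tested. Median UMIs per member were 6694.5 to 7785 in WT, and 33 to 45 members per culture were summed in Fgf23cKO. With other cells matched to members on UMIs 1781 genes were higher and 1984 lower.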
